A study of Rhagoletis pomonella with 50 samples.

Results

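This account describes the 100 of 29399 features whose level differed most between replicate pools in RNA sequencing of the pupal central nervous system (CNS) of the apple maggot fly, Rhagoletis pomonella. Abundance was the count of a feature per 1000000 counts of its library (CPM). The 7344 features with a mean of 5 CPM or more were ranked by the SD of log2(CPM + 0.5) among replicates of one host and month, taken as the median over the 10 groups, and the 100 highest are called the members. The members were thus selected on this spread, and it is given below as a description with no test.

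Each library was made from polyA RNA of a pool of 10 CNS. The pupae came from apple or hawthorn fruit collected in the field at Urbana, Illinois, in 2014. All had entered diapause in the laboratory and were then kept at 3.5 °C for 2, 3, 4, 5 or 6 months, with 5 pools for each host and month and 50 libraries in all. No warm or non-diapause group is part of the design, so every group shares the cold and the diapause. The pools are named as separate samples of a group, and all pupae of a host came from fruit of one place and season, so p-values measure the spread between such pools. The files pair the feature identifiers with no gene name, and 0 of the 29399 identifiers matched the RefSeq gene table of R. pomonella. The features are therefore given by identifier, without a function, and neither the labelled tissue nor other tissues could be checked by marker genes.

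Diapause is a programmed arrest of development that carries an insect through winter. In tephritid flies such as R. pomonella it is entered at the pupal stage and ended after a long cold period, and the apple-infesting and hawthorn-infesting populations differ in its timing. The CNS governs that timing through neurosecretory hormones, and it also stands at the start of the remodelling that makes the adult brain. Each value here is an average over the individuals of a pool.

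The smallest library held 8718271 counts and the largest 30540959 (median 14615585). The libraries were run on 6 lanes, and 6 of them, replicates 3, 4 and 5 of each host at 6 months, carried a single rather than a dual index. Replicates 2 and 4 of hawthorn at 4 months stood apart from the rest, with TMM scaling factors of 0.651 and 0.728 and a fall of abundance with transcript length (slopes of -0.281 and -0.283 log2 units per doubling), and the ranking left them out. The values below therefore rest on 48 libraries unless those 2 are named.

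The members' median SD was 0.862 log2 units, against 0.231 for the other 7244 ranked features. At a feature's mean count, the spread expected from counting alone had a median of 0.0971 for the members and 0.0771 for the others. It is larger in libraries with few counts, as for gene461, which was under 1 CPM in 28 libraries. The part of counting in the spread was not tested. The members ranked first were gene9585 (2.90), gene21454 (1.96), gene28147 (1.84), gene7741 (1.78) and gene461 (1.56). At the threshold the values were nearly continuous, with gene9049 at 0.687004 as the last member and gene2007 at 0.6867 as the first feature left out. Mean abundance ran from 5.11 CPM for gene3834 to 6399 CPM for gene22011, followed by gene15960 with 638 CPM. On a scale divided by transcript length, the median TPM was 13496 for gene22011 and 201 for gene15960. Every group showed the wider spread, from a median of 0.623 in apple at 2 months to 1.15 in apple at 4 months.

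**Figure D1:**
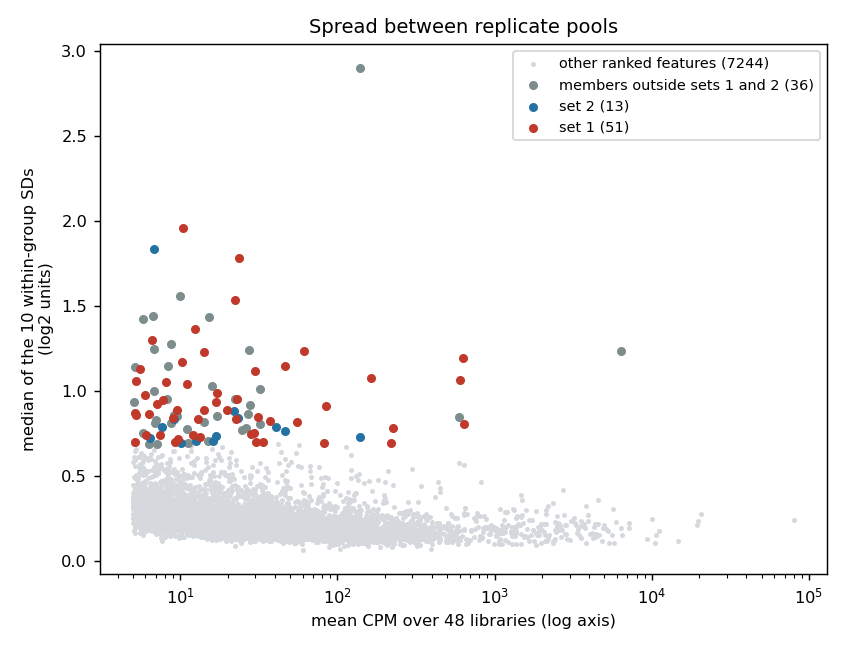
Median of the 10 within-group SDs of log2(CPM + 0.5) (y axis, log2 units) against mean CPM over 48 libraries (x axis, log scale) for the 7344 ranked features. The members (coloured) lie above 0.687 by construction, at mean levels from 5.11 to 6399 CPM and mostly at the lower end, with gene9585 alone at 2.90.

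The members shared some properties that the ranking did not use. Their median length was 1147.5 bp, against 1946 bp for the other ranked features. A single annotated transcript was listed for 84 of the 100 members, against 64.0% of the others. Estimated counts that were not whole numbers, which arise where reads are divided between similar sequences, occurred in at least 50% of the libraries for 37 members and for 26.5% of the others. Adding the lane to the group means removed a median of 12.3% of a member's variance within groups, and 10.9% in the other features. Terms for 6 lanes remove some variance even where lane has no effect, so these shares do not measure a lane effect. A library with no count, which enters the ranked SD directly, was seen for 13 members and for 0.0966% of the others.

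The ranking was also repeated in the groups of a single host, and the spread of its top 100 features was read in the other host. The members themselves were chosen on both hosts, so these values are a description. When the ranking was made in the apple groups alone, its top 100 features had a median SD of 0.768 in the hawthorn groups, against 0.227 for the remaining features there. When it was made in the hawthorn groups alone, its top 100 had a median SD of 0.872 in the apple groups, against 0.232. All 100 lay above the median of the remaining features in the other host in both cases, and 74 and 79 of them were among the members. In the 2 libraries left out of the ranking, 57 and 62 of the members deviated at least 2-fold from the mean of the other 3 pools of their group. The same was true of 36.0% and 38.5% of the other ranked features, so these libraries deviated for many features and more often for the members.

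Most of the members varied in sets. When each value was taken relative to its group mean, average-linkage clustering on the correlation between members over the 48 pools (tree cut at a distance of 0.5) placed 51 members in one set and 13 in a second. There were 2 further sets of 3, a set of 2, and 28 members in no set. Since these are the values that chose the members, the sets are a description. Within a pool all members also share its library, lane and depth, which differ between pools. In bulk samples, fewer cells of a type and less RNA per cell cannot be told apart, and this holds for every level below.

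**Figure D2:**
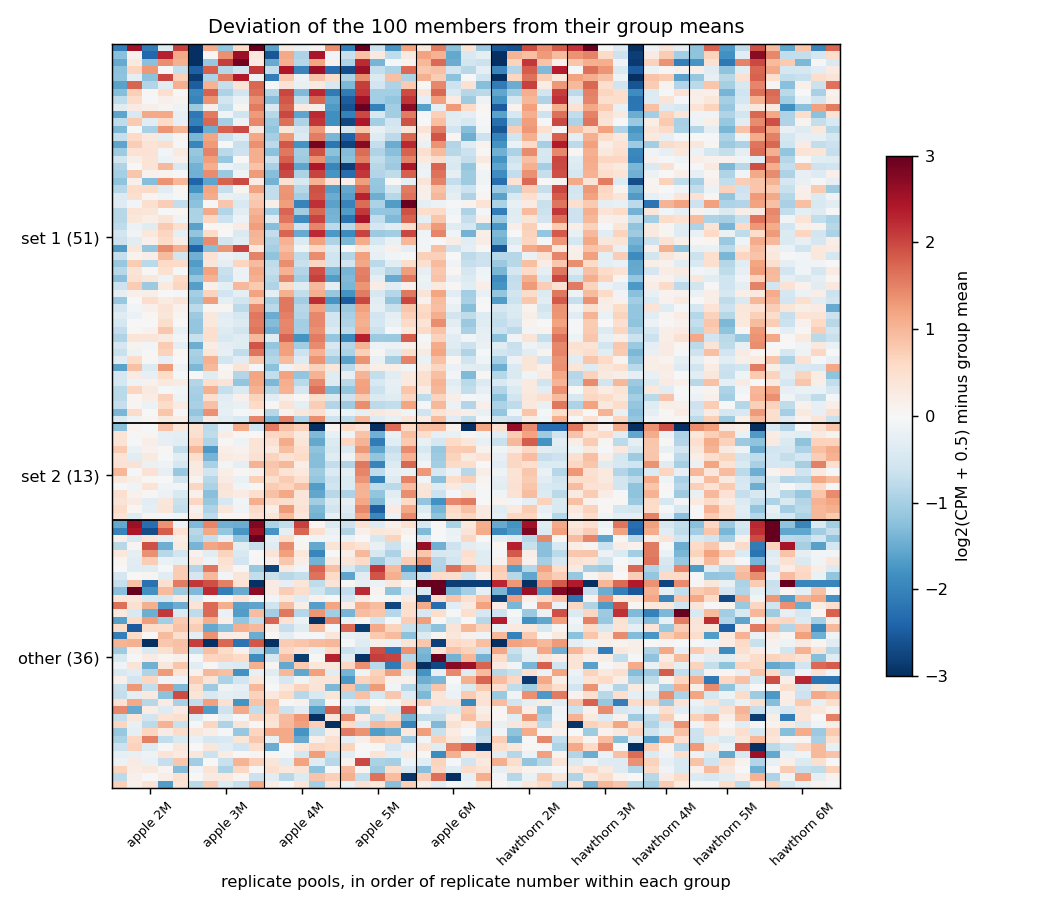
Deviation of log2(CPM + 0.5) from the group mean (colour, limited to 3 log2 units either way) for the 100 members (rows, by set and then rank) in the 48 pools (columns, by host and month). Whole columns of set 1 and of set 2 are high or low together. Some of these columns go opposite ways in the 2 sets, as replicate 4 of apple at 4 months. Others go the same way, as replicate 5 of hawthorn at 3 months, low in both. The 36 other members form no common block.

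Set 1, with 51 members, varied as a block between pools of the same host and month. The median correlation between its members was 0.723 (lowest 0.200, highest 0.982). In 10 of the 48 pools at least 90% of its members lay above their group mean, and in 12 pools at least 90% lay below. The mean deviation of the set ran from -1.58 to 1.58 log2 units, and its summed abundance ran from 647 to 11868 CPM with a median of 2006 CPM. Apple at 4 months shows the pattern. The summed CPM in replicates 1 to 5 was 1383, 8506, 1634, 9971 and 1548, so that replicates 2 and 4 were high and the other 3 lay close together. In hawthorn at 2 months it was 1401, 2674, 5585, 2634 and 11868, with replicate 5 the highest of the 48 pools.

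The member closest to the rest of set 1 was gene5346, with a correlation of 0.957 to the mean of the others and a mean of 631 CPM. Its CPM in apple at 4 months was 176.7, 1568, 255.2, 1421 and 141.3, high in the same replicates 2 and 4. In apple at 5 months it was 61.4, 1977, 170.7, 154.5 and 1528, with replicates 2 and 5 high. No value of gene5346 fell between 467.7 and 1421 CPM in apple at 4, 5 or 6 months, whereas in apple at 2 months the lowest was 387.9 and the highest 976.7 CPM. The member of the set with the highest mean CPM, gene15960, had 261.4, 2102, 405.3, 2004 and 495.7 CPM in apple at 4 months, high again in replicates 2 and 4. Estimated counts of gene15960 were not whole in 98% of the libraries, which arises where reads are divided between similar sequences, whereas those of gene5346 were whole in all.

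The 3 members of set 1 with the widest spread followed the block only in part. For gene21454, apple at 3 months gave 0.242, 19.4, 3.57, 13.4 and 77.9 CPM, and hawthorn at 3 months gave 62.2, 109, 13.7, 10.0 and 0 CPM. For gene7741, hawthorn at 2 months gave 1.82, 82.2, 76.8, 98.3 and 79.4 CPM, 1 low pool against 4 alike. For gene8046, apple at 3 months gave 0.630, 8.30, 81.5, 144 and 22.4 CPM. Replicate 1 was the lowest in each of these groups except for gene21454 in hawthorn at 3 months, where replicate 5 was, and set 1 as a whole was lowest in the same pools. With the tree cut at 0.4 these 3 members separated with 6 others (gene6337, gene19905, gene1597, gene843, gene8571 and gene6244) into a set of 9, which left 40 members together and 2 apart.

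Set 2, with 13 members, formed another block. The median correlation between its members was 0.776, and all 13 had a single annotated transcript. In 15 pools at least 90% of its members lay above their group mean, and in 13 pools below. Its mean deviation ran from -1.70 to 1.13 log2 units, so the low pools departed further than the high ones, and its summed abundance ran from 90.8 to 757 CPM. In apple at 5 months the summed CPM was 189.4, 536.6, 90.8, 183.3 and 460.7, with replicate 3 the lowest of the 48 pools.

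The deviations of set 1 and set 2 were almost unrelated over the 48 pools (Pearson r = 0.022, Spearman rho = 0.0088). In apple at 4 months, replicate 4 had the highest summed CPM of set 1 and the lowest of set 2, 114.3 against 480.2 to 550.1 in replicates 1 to 3. In hawthorn at 3 months, replicate 5 was the lowest for both sets, with 1629 CPM for set 1 and 104.0 CPM for set 2.

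The 3 members of set 2 with the widest spread were gene28147, gene24643 and gene27314. For gene24643, apple at 5 months gave 17.3, 34.7, 6.63, 16.4 and 35.6 CPM, with replicates 2 and 5 high and replicate 3 lowest, as in the sum over the set. For gene27314 the same pools gave 30.7, 40.2, 4.17, 15.3 and 34.2 CPM. For gene28147 they gave 6.94, 6.12, 0, 15.3 and 6.93 CPM, with no count in the pool where the set was lowest. It had no count in 8 of the 48 libraries and at least 1 CPM in the other 40, and its estimated counts were not whole in 84% of the libraries. Its correlation with the rest of the set was the lowest, 0.577, against 0.943 for gene2170.

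The blocks were not confined to the members. Among the other 7244 ranked features, 234 (3.23%) followed set 1 with a correlation of 0.5 or more, 99 of them with 0.7 or more, and 12 ran against it at -0.5 or less. The nearest was gene295, at 0.914. For set 2, 692 (9.55%) followed at 0.5 or more, 184 of them at 0.7 or more, and 97 ran against it, the nearest being gene27177 at 0.950. Set 1 had a correlation of 0.029 with the library's length slope, 0.095 with total count, 0.266 with the TMM factor and 0.263 with the number of features holding 10 counts. The same values for set 2 were 0.155, -0.035, 0.345 and 0.091. The part of these measures in the blocks was not tested.

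**Figure D3:**
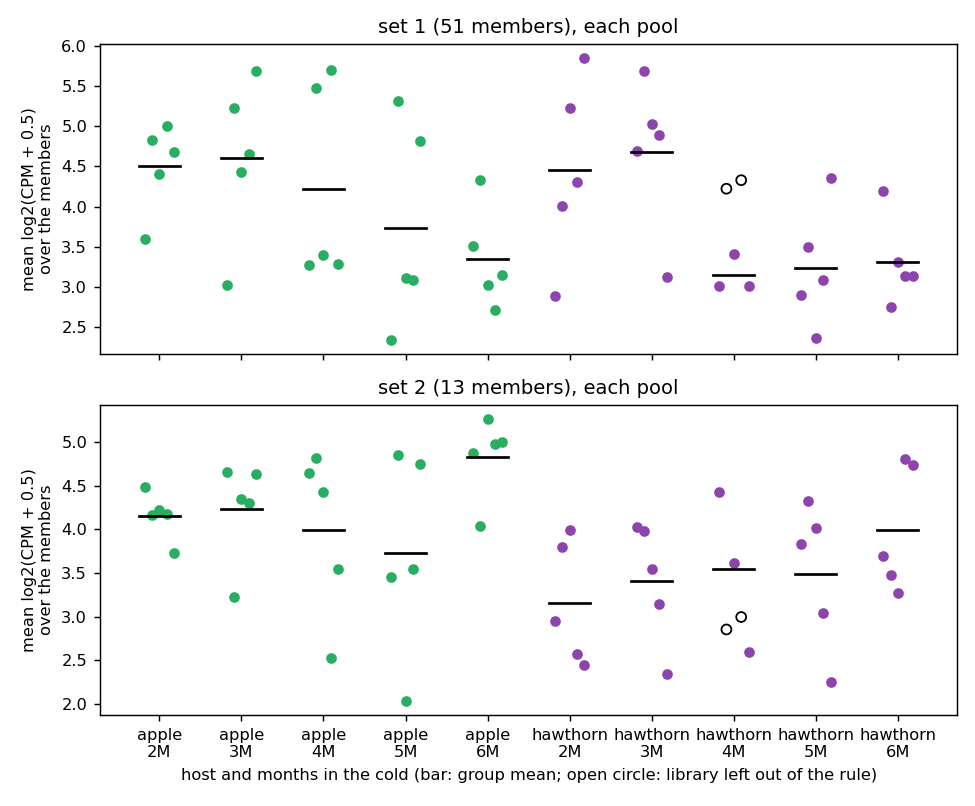
Mean log2(CPM + 0.5) over the 51 members of set 1 (top) and the 13 members of set 2 (bottom) in each pool, by host and months in the cold, with bars at group means and open circles for the 2 libraries left out of the ranking. In apple at 4 months set 1 splits into 2 pools above 5.4 and 3 below 3.5, and its group means at 2 and 6 months are 4.50 and 3.35 in apple, and 4.45 and 3.31 in hawthorn.

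The smaller sets, named here after their values were seen, were in part related to the larger ones. A set of 3 held gene9247, gene9248 and gene14752, which stood out in single pools. In hawthorn at 6 months gene9247 gave 215, 1.94, 1.94, 3.00 and 3.91 CPM, gene9248 gave 84.3, 0.969, 0.352, 1.98 and 1.15 CPM, and gene14752 gave 64.3, 2.93, 2.83, 3.61 and 2.15 CPM. Replicate 1 alone was high for all 3, and this set had a correlation of 0.547 with set 1.

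A second set of 3 held gene22011, highest of the members in both CPM and TPM, with gene16088 and gene27841. In apple at 6 months gene22011 gave 26373, 1588, 2789, 3427 and 3701 CPM, high in replicate 1. In hawthorn at 5 months it gave 8638, 10147, 6477, 8616 and 1371 CPM, low in replicate 5, where set 2 was lowest as well. The set had a correlation of 0.544 with set 2. It was 0.709 for gene16088, 0.695 for gene27841 and 0.221 for gene22011.

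The pair gene10548 and gene28641 ran opposite to set 2, with a correlation of -0.796 for their mean. In hawthorn at 5 months gene28641 gave 28.6, 12.9, 13.4, 59.6 and 80.2 CPM, where set 2 summed to 400.1, 425.8, 440.1, 186.9 and 102.6 CPM. The pools highest in the one were lowest in the other. Estimated counts of both were not whole in 100% of the libraries. The members gene13718 (-0.638) and gene14339 (-0.556) also ran at -0.5 or less against set 2, and their counts were not whole in 98% and 86% of the libraries.

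The 28 members in no set differed from set 1, and less clearly from set 2, in how their counts were made up. Their estimated counts were not whole in a median of 88% of the libraries, against 0% in set 1 and 2% in set 2. The pair gene10548 and gene28641 had 100%. Set 2 was split, with 6 of its 13 members not whole in 84% to 100% of the libraries. By the measure that gave 37 of all members above, there were 18 of the 28 in no set, 6 of 13 in set 2 and 10 of 51 in set 1. Of the 28 members in no set, 10 had a library with no count. The widest spread of all belonged to one of them, gene9585. In hawthorn at 3 months it gave 464, 0, 178, 288 and 462 CPM, in hawthorn at 2 months 267, 133, 0, 141 and 194 CPM, and in apple at 3 months 138, 120, 89.3, 42.3 and 0 CPM. One pool in each of these groups had no count and the other 4 had at least 42 CPM. At 6 months most pools were at 0, with 139, 32.3, 0, 0 and 0 CPM in apple and 0.731, 186, 0, 0 and 0 CPM in hawthorn. All 6 single-index libraries had no count of gene9585, and so did 3 of the 42 dual-index libraries. Its counts were not whole in 80% of the libraries, which arises where reads are divided between similar sequences. Its level is therefore uncertain, and the part of such division in its spread was not tested.

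One pool of gene461 stood far above the rest. It gave 314, 1.29, 0.537, 0.198 and 0 CPM in hawthorn at 3 months and stayed under 1 CPM in 28 of the 48 libraries. In apple at 2 months it gave 1.37, 41.7, 0.778, 8.13 and 1.60 CPM. Its counts were whole in every library, unlike those of gene9585.

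**Figure D4:**
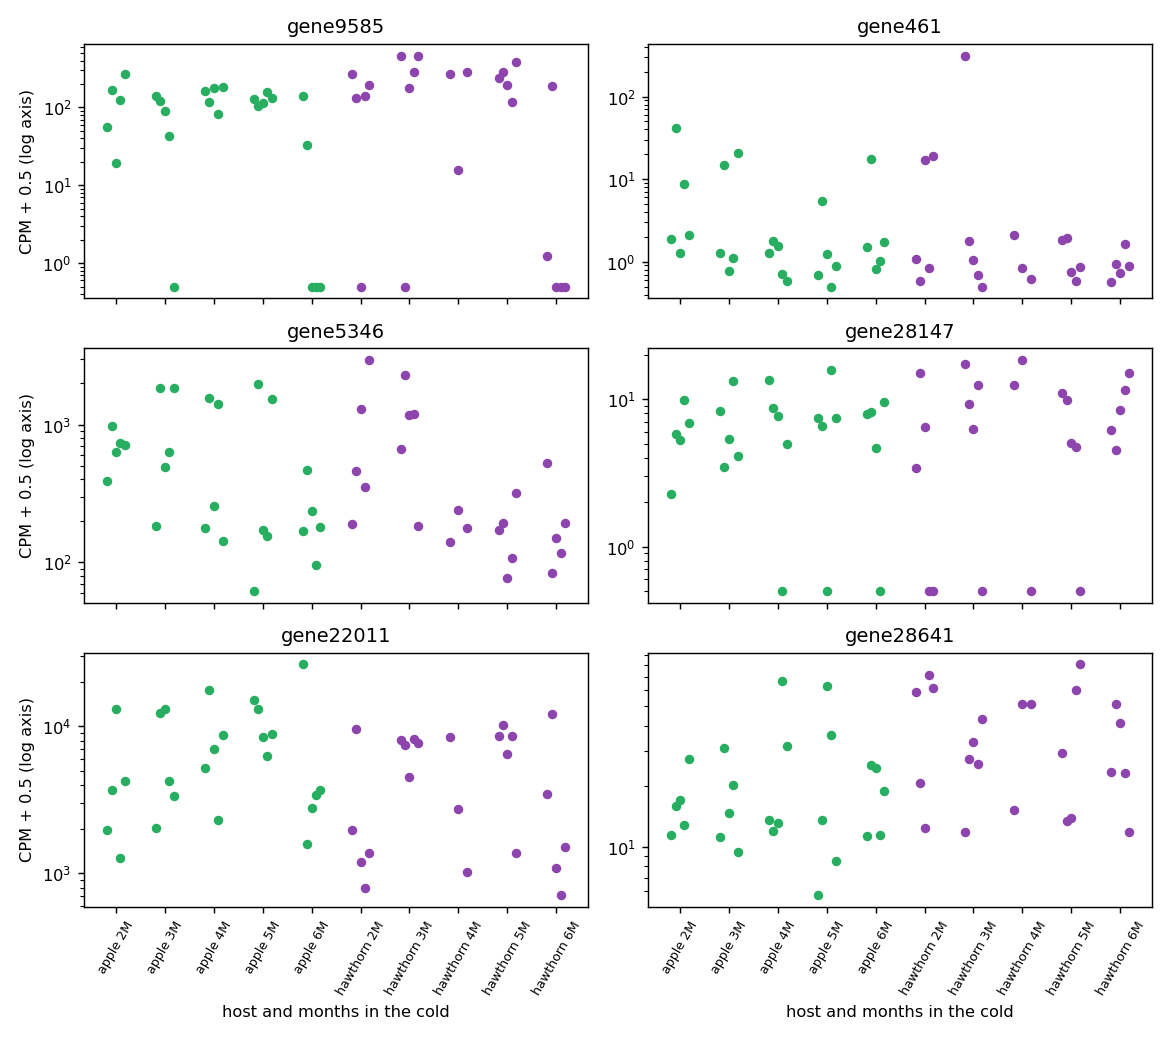
CPM + 0.5 (log axis) in each of the 48 pools, by host and months in the cold (apple green, hawthorn purple), for gene9585, gene461, gene5346 (set 1), gene28147 (set 2), gene22011 and gene28641. Points at 0.5 are libraries with no count, 9 for gene9585 and 8 for gene28147.

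Some members had consecutive identifier numbers. There were 5 such pairs, and all had a correlation of 0.5 or more, against 361 of 3205 pairs (11.3%) among the other ranked features, whose median was 0.167. Among the members themselves, 1200 of the 4945 pairs that were not consecutive (24.3%) reached 0.5. For 3 of the 5 pairs both members were in set 1, where 81.7% of the other pairs did so. The values were 0.970 for gene9247 and gene9248, 0.922 for gene13519 and gene13520, 0.904 for gene20264 and gene20265, 0.694 for gene2533 and gene2534, and 0.575 for gene7552 and gene7553. The longest run was 2 identifiers. Whether consecutive numbers are neighbours in the genome was not given in the sources used here.

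The 2 libraries left out of the ranking showed which way the sets moved in libraries that had not shaped them. In each of them 43 of the 51 members of set 1 were above the mean of the other 3 hawthorn pools at 4 months, by a median of 1.21 log2 units in replicate 2 and 1.10 in replicate 4. The other ranked features had medians of -0.65 and -0.55 in the same libraries. For gene5346 replicates 1 to 5 gave 138.9, 405.9, 240.3, 1269 and 175.8 CPM, with the left-out replicates 2 and 4 the 2 highest. Set 2 did not move as a block there, with 4 and 6 of its 13 members higher. These are the libraries with a fall of abundance with transcript length, and the part of that in the values was not tested.

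Group means were not used by the ranking, so the differences between hosts and months were tested, with edgeR's quasi-likelihood test over all 14342 features that passed a filter on low counts and Benjamini-Hochberg adjustment at 0.05. All 100 members passed that filter. The members of a set rise and fall together between pools. Counts of a set's members by direction are therefore not independent, and members do not add replicates. The wide spread of the members limits such tests. The median SE of a member's log2 fold change between 6 and 2 months was 0.644 in apple and 0.664 in hawthorn, against 0.238 and 0.243 over all features tested.

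Averaged over the months, few members differed between hosts. Of the 100, 13 were called, 9 higher in apple and 4 lower, against 22.2% of all features (10.5% higher and 11.6% lower). Set 2 gave 6 of these calls, all higher in apple (gene18230, gene11507, gene2170, gene7552, gene13921 and gene6993). Its median log2 fold change of apple over hawthorn was 0.65, with 12 of 13 members above 0, where the median over all features was 0.0083. Set 1 gave 1 call of 51, and its median was 0.39, or -0.01 with sequencing lane as a term.

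The largest host difference among the called members was that of gene3834, a member in no set. In apple at 2 months it gave 7.97, 8.87, 5.73, 27.6 and 15.1 CPM, and in hawthorn at 2 months 0.911, 1.08, 3.10, 1.73 and 5.18 CPM, and these 2 groups did not overlap. At 6 months apple gave 0.830, 3.34, 12.0, 3.08 and 8.44 CPM and hawthorn 1.90, 0.447, 0.998, 1.70 and 0.997 CPM, which overlapped in replicate 1 of apple. The log2 fold change was 1.74 (SE 0.327, edgeR adjusted p = 0.00021). The other named members were gene2533 of set 1 (1.31, SE 0.40, edgeR adjusted p = 0.0156), gene5320 (-1.04, SE 0.249, edgeR adjusted p = 0.00245) and gene28641 (-0.95, SE 0.281, edgeR adjusted p = 0.0128). The partner of gene28641, gene10548, did not pass the test (-0.75, edgeR adjusted p = 0.141).

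The hosts shared no lane at 2, 3, 4 or 5 months and 1 lane at 6 months. With lane as a term 0 members were called, and the median of set 2 was 0.91, with 11 of 13 members above 0. The 22.2% of all features called belongs to the fit without this term. In the shared lane at 6 months, set 2 was higher in the 4 apple pools than in the 3 hawthorn pools for 11 of 13 members, by a median of 0.73 log2 units. Of these 7 pools all but apple replicate 2 were single-index.

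Over the months in the cold, every member of set 1 that passed the test between 6 and 2 months fell. In hawthorn 17 of its 51 members were lower at 6 than at 2 months and none higher, and in apple 8 were lower and none higher. All 51 fold changes were below 0 in hawthorn and 49 in apple, with medians of -1.47 and -1.14 log2 units, where the medians over all features were -0.03 and -0.02. Since these members vary together between pools, the shared sign is not 51 separate observations. The mean level of the set in apple was 4.50, 4.60, 4.22, 3.73 and 3.35 log2 units at 2, 3, 4, 5 and 6 months. In hawthorn it was 4.45, 4.68, 3.15, 3.24 and 3.31, with the step between 3 and 4 months. The value of hawthorn at 4 months rests on 3 pools. The 2 left-out pools of that group stood at 4.22 and 4.33, so the size of the step depends on leaving them out. The SD between pools, from 0.230 log2 units (the 3 hawthorn pools at 4 months) to 1.27, was of the order of these steps. The single pools of different months overlapped.

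In counts over all members, 20 were called in hawthorn between 6 and 2 months (2 higher, 18 lower), against 26.0% of all features (13.9% higher and 12.1% lower). In apple 13 were called (5 higher, 8 lower), against 20.4% (11.8% higher and 8.59% lower). The totals were thus below those of all features, while the calls of set 1 were all in one direction.

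Among the called members, the largest falls in hawthorn were those of gene26176 and gene13520. For gene26176 hawthorn gave 13.6, 22.8, 31.7, 16.6 and 82.1 CPM at 2 months and 5.64, 1.19, 5.69, 1.91 and 2.15 CPM at 6 months, with no overlap (log2 fold change -3.38, SE 0.839, edgeR adjusted p = 0.0025). For gene13520 the pools gave 2.42, 5.76, 39.9, 4.07 and 58.6 CPM at 2 months and 4.86, 1.19, 1.23, 1.43 and 2.38 CPM at 6 months (-3.36, SE 1.10, edgeR adjusted p = 0.0212). Here the groups overlapped, and replicates 3 and 5 at 2 months, the pools in which set 1 was high, stood far above all others. Without hawthorn replicate 5 at 2 months the adjusted p of gene13520 was 0.0863, and without replicates 3 or 4 at 6 months it was 0.0514 and 0.0516. Without the single-index libraries neither gene26176 (-3.35, adjusted p = 0.0898) nor gene13520 (-2.91, adjusted p = 0.253) was called.

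In apple the largest falls among the called members were those of gene13519 and gene4426. For gene13519 the pools gave 26.0, 57.0, 173, 173 and 66.2 CPM at 2 months and 8.02, 13.9, 6.36, 6.68 and 8.44 CPM at 6 months, with no overlap (-3.47, SE 0.877, edgeR adjusted p = 0.00377). For gene4426 they gave 199.0, 1003, 775.6, 855.0 and 573.2 CPM at 2 months and 78.0, 230.8, 49.0, 69.4 and 96.1 CPM at 6 months (-2.67, SE 0.942, edgeR adjusted p = 0.0395). Only replicate 1 at 2 months lay within the range of 6 months. The call of gene4426 was lost in 8 of the fits that left out 1 library, all of them apple pools at 2 or 6 months, with adjusted p-values up to 0.0861. Neither gene13519 (-3.11, adjusted p = 0.13) nor gene4426 (-2.08, adjusted p = 0.359) was called without the single-index libraries.

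The members that rose were few. In hawthorn they were gene16088 and gene27841, both of the set of gene22011. For gene16088 the pools gave 145.2, 533.1, 170.9, 61.9 and 86.2 CPM at 2 months and 519.0, 1235, 555.2, 639.1 and 640.0 CPM at 6 months, overlapping in replicate 2 at 2 months (1.75, SE 0.582, edgeR adjusted p = 0.0232). For gene27841 the log2 fold change was 1.40 (SE 0.480, edgeR adjusted p = 0.0281). The calls were lost without any one of 4 and of 5 hawthorn pools, with adjusted p-values up to 0.0725 and 0.0831, and with the length slope as a term (0.109 and 0.116). Without the single-index libraries the fold changes were 2.03 and 1.48, with adjusted p-values of 0.0643 and 0.104.

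In apple the largest rises among the called members were those of gene7553 and gene26542, both in no set. For gene7553 apple gave 9.28, 13.2, 3.33, 12.8 and 18 CPM at 2 months and 1.01, 4.23, 202, 184 and 102 CPM at 6 months. The 3 high pools were the single-index libraries, and the dual-index pools, replicates 1 and 2, lay below all but replicate 3 of 2 months. The log2 fold change was 3.14 (SE 0.860, edgeR adjusted p = 0.00752) with all pools and -1.94 (SE 0.915, adjusted p = 0.171) without the single-index libraries. Its neighbour by number, gene7552 of set 2, gave 13.1, 8.27, 83.5, 91.3 and 30.5 CPM at 6 months, again high in the 3 single-index pools. In hawthorn at 6 months gene7553 gave 3.24, 3.65, 6.75, 34.5 and 37.7 CPM, with the single-index replicates 3, 4 and 5 above the other 2. For gene26542 apple gave 9.75, 10.0, 10.6, 16 and 14.2 CPM at 2 months and 56.5, 14.6, 116, 69.0 and 76.1 CPM at 6 months, and its dual-index replicate 1 was high too (2.43, SE 0.625, edgeR adjusted p = 0.0044). Its log2 fold change was 1.498 without the single-index libraries (edgeR adjusted p = 0.204), and with lane as a term 1.95 (adjusted p = 0.25).

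**Figure D5:**
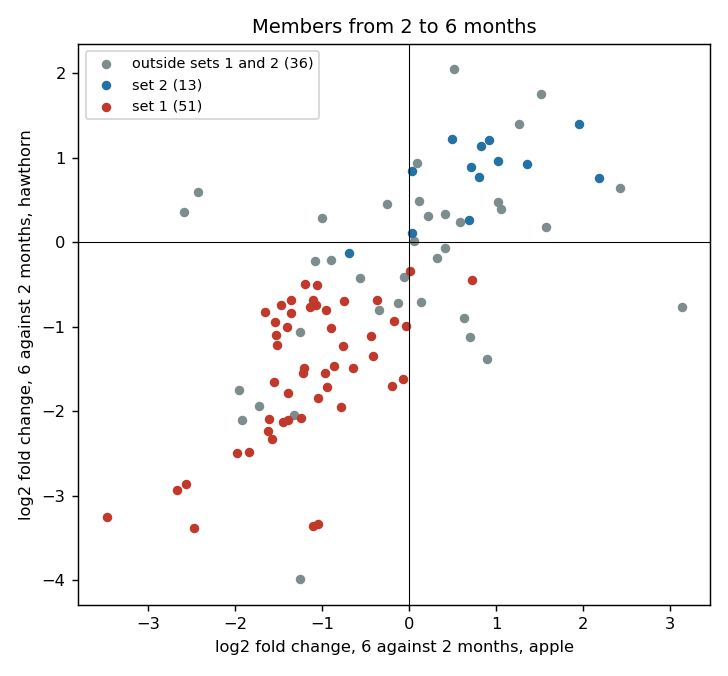
Log2 fold change from 2 to 6 months of each of the 100 members in apple (x axis) and hawthorn (y axis), from the fit to 48 libraries. Of the 51 members of set 1, 49 lie below 0 in apple and all 51 in hawthorn, while 12 of the 13 members of set 2 lie above 0 in each.

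Set 2 had a median log2 fold change between 6 and 2 months of 0.81 in apple and 0.89 in hawthorn, with 12 of 13 members above 0 in each. Of these, 2 members passed the test in apple (gene7552 and gene13921) and 0 in hawthorn, where the unadjusted p of 4 was under 0.05 and DESeq2 called 3. Without the single-index libraries the medians were 0.07 and 0.08, and 0 members were called in either host.

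Within one lane the months could be compared in hawthorn only, since apple at 2 and at 6 months shared no lane. Hawthorn at 2 and 6 months shared 1 lane, with 2 pools at 2 months and 3 at 6 months. There all 51 members of set 1 were lower at 6 months, by a median of 2.15 on the log2 scale. The 2 pools at 2 months had the highest set 1 levels of their group. In the fit to all 48 libraries the median log2 fold change was -1.47. The 3 pools at 6 months were all single-index and the 2 at 2 months dual-index, so within this lane index type and month cannot be told apart. With lane as a term over all libraries the medians of set 1 were -1.72 in apple and -1.60 in hawthorn, with all 51 members below 0 in both, and 0 and 10 members were called. Without the single-index libraries the medians were -0.58 and -1.23, with 43 and 51 members below 0, and 0 and 1 were called, with 2 pools left at 6 months in each host. In apple, lane and months cannot be told apart.

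Leaving out 1 library moved the counts of set 1 widely. In apple between 6 and 2 months the count of 8 ran from 1, without replicate 4 at 2 months, to 15, without replicate 2 at 6 months. It was 2 to 4 without replicates 1, 3, 4 or 5 at 6 months or replicates 2 or 5 at 2 months, and 5 without hawthorn replicates 3 or 4 at 3 months. In hawthorn the count of 17 was 6 without replicate 5 at 2 months, and 9, 10 and 7 without replicates 2, 3 and 4 at 6 months.

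As a test of any change over the 5 months, 21 members were called in hawthorn, against 24.6% of all features, and 12 in apple, against 29.7%. Set 1 gave 19 of the 21 in hawthorn and 6 of the 12 in apple, and set 2 gave 0 and 2. In hawthorn the lowest p-values were those of gene12520 (edgeR adjusted p = 0.00056) and gene13519 (edgeR adjusted p = 0.00077), both of set 1. For gene12520 the median CPM fell from 54.3 at 2 months to 11.5 at 6 months. In apple they were gene7552 (edgeR adjusted p = 0.00155) and gene7553 (edgeR adjusted p = 0.00205), and neither was called without the single-index libraries (adjusted p = 0.303 and 0.297). The apple count was 23 without replicate 2 at 6 months, and 0 with lane as a term.

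The difference between the hosts in the course over the months was tested as an interaction. By edgeR's quasi-likelihood test 0 members were called, against 3.36% of all features, the unadjusted p of 7 members was under 0.05, and DESeq2 called 5. The step of set 1 between 3 and 4 months in hawthorn and its slower fall in apple were therefore not shown to differ.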

How the data were processed

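RNA of 50 pools of 10 CNS was sequenced as stranded, single-end polyA libraries, mapped with STAR to the genome of the related species Rhagoletis zephyria and counted with RSEM, per the labels' protocols. The deposited files give, for each of 29399 features, the expected count that the authors obtained from RSEM, which is not normalized. They also give TPM, deposited by the authors as RSEM's length-scaled abundance that sums to about 1000000 per library, and the transcript length in bp. No label or header used here states the software versions or the gene annotation.

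The naming of the deposited files gave the lane and the kind of index. For the tests the expected counts were rounded, and this changed no library's total by more than 0.000438%. Estimated counts that were not whole made up 13.4% to 20.9% of the features of a library. CPM was the expected count per 1000000 counts of the library. The membership rule and the sets are given with the results, and sets of 4 or more were described. Set levels are means of log2(CPM + 0.5).

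Tests used edgeR 4.0.16 (quasi-likelihood, robust, TMM, 1 mean per host and month, filterByExpr with a minimum count of 10) in R 4.3.3 on 48 libraries. The tests were the host mean, any change over months within a host, the interaction, and 6 against 2 months within a host, each with Benjamini-Hochberg adjustment over 14342 features. Alternatives were DESeq2 1.42.0, its size factors, other filters, all 50 libraries, terms for lane, length slope and replicate number, no single-index libraries, and each library left out. Scripts were tested on simulated data.

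The members and lists were chosen with earlier results of these data known. Named were the 5 members of highest spread, the 3 highest in each set of 4 or more, the 2 highest in no set, ranks 100 and 101, the 2 most abundant, consecutive identifiers, and in each comparison at most 2 called members per direction by fold change (2 by p for tests over several months). Other features named were chosen after their values were seen. No 2 replicates of a group agreed within sampling noise, the lowest chi-square per degree of freedom being 10.4. Over all filtered features, same-numbered pools of different groups had a median correlation of 0.0061 (36 of 207 pairs over 0.1), against -0.0068 for other pools. Pairing by replicate number was thus not seen over all features. In set 1, apple replicate 2 lay above its group mean at every month, by 0.33, 0.62, 1.25, 1.58 and 0.98 log2 units. Hawthorn replicate 2 lay below its group mean at 2 and 6 months (-0.45 and -0.55). Whether the numbers pair pools in the sets was not tested.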

Additional observations from a re-analysis of the deposited data

Results flagged for a closer look

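In 18 of the 243 combinations of a named member or set and a group that were examined, 1 pool stood apart from the other pools of its group, its gap to the nearest taking more of the range of log2(CPM + 0.5) than Dixon's 95% critical value. Chance flags about 1 group in 20, and the members were chosen for spread.

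For gene9585 the gap ratio was 0.791 in apple at 3 months (0 CPM in replicate 5), 0.89 in hawthorn at 2 months (0 CPM in replicate 3), 0.86 in hawthorn at 3 months (0 CPM in replicate 2) and 0.848 in hawthorn at 6 months, where replicate 2 was high at 186 CPM. For gene28147 a pool with no count gave ratios of 0.749 in apple at 5 months, 0.76 in apple at 6 months, 0.716 in hawthorn at 3 months and 0.724 in hawthorn at 5 months. For gene461 replicate 2 of apple at 6 months was high at 17.1 CPM (0.749), and replicate 1 of hawthorn at 3 months at 314 CPM (0.802).

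For gene22011 replicate 3 of hawthorn at 3 months was low at 4511 CPM (0.829), and replicate 5 of hawthorn at 5 months at 1371 CPM (0.776). For gene7741 replicate 1 of hawthorn at 2 months was low at 1.82 CPM (0.935). For gene5320 replicate 5 of hawthorn at 3 months was high at 15.9 CPM (0.857). For gene16088 replicate 2 of hawthorn at 6 months was high at 1235 CPM (0.758). For gene27841 replicate 4 of apple at 4 months was low at 4.42 CPM (0.712), and for gene9049 replicate 4 of apple at 2 months at 1.43 CPM (0.759). The mean log2 level of set 2 was low in replicate 2 of apple at 3 months (0.751).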

How the results depend on the processing

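The number of members by the rule that also met it otherwise was 43 with a mean of 1 CPM or more, 61 with 10 CPM or more, and 74 to 96 under the other settings, with 92 to 99 when 1 library was left out. The median size of the members' deviation in either direction, averaged over the 2 left-out libraries, was 1.30 log2 units. It was 1.08 with a pseudocount of 2 and 1.47 with TMM-scaled CPM. All sets large enough to be described, whether or not they matched sets 1 and 2, together held 60 to 70 members under every setting tried. Of set 1, 39 to 51 members stayed together, the fewest without hawthorn replicate 1 at 2 months.

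Counts of called members moved by more than 1.5 times under these settings. The shares over all features given with the results belong to edgeR's fit to 48 libraries without added terms. The counts below therefore have no such share beside them. With lane as a term they were 0 for host, 0 for months in apple, 5 for months in hawthorn, 0 for 6 against 2 months in apple and 13 for 6 against 2 months in hawthorn. Without the single-index libraries they were 2 for months in apple, and 0 in apple and 3 in hawthorn for 6 against 2 months. The fold change of gene7553 in apple was then -1.94 on the log2 scale, the 1 reversal. DESeq2 gave 24 for months in apple, 32 for months in hawthorn and 5 for the interaction. The length slope term gave 13 for 6 against 2 months in hawthorn, no filter gave 8 in apple, and all 50 libraries gave 7 for months in apple. The cause was not tested. In fits that left out 1 library each, the count for 6 against 2 months in apple ran from 5 (without replicate 4 at 2 months) to 21 (without replicate 2 at 6 months), and was 6 to 8 without replicates 1, 3, 4 or 5 at 6 months or 2 or 5 at 2 months. In hawthorn it ran from 6 (without replicate 5 at 2 months) to 25, with 13 and 10 without replicates 2 and 4 at 6 months. It ran from 8 to 23 for months in apple (highest without replicate 2 at 6 months), 15 to 31 for months in hawthorn and 11 to 18 for host.

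Over all features the replicate numbers showed no pairing of the pools, and for the sets this was not tested. With the replicate block, counts were 12 for host, 13 and 21 for months in apple and hawthorn, 0 for the interaction, and 16 in apple and 16 in hawthorn for 6 against 2 months.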
